A study of Mus musculus with 12 samples.

Results

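Polysome mRNA of neural stem cells (NSCs) grown in low folic acid (pLF, 1.5 µM) was compared with polysome mRNA of the same kind of cells grown in medium folic acid (pMF, 10 µM). The comparison used 4 of the 12 libraries of the study, 2 of pLF and 2 of pMF, and covered every gene measured in polysome mRNA. Of the 43432 genes listed in the tables, 13433 had enough counts in the polysome libraries to be tested. The cells were adult NSCs from the subventricular zone of the lateral ventricles of wild type male C57BL/6 mice aged 6 to 8 weeks. They were grown as a monolayer with EGF and bFGF for 4 days at each dose, and the labels give no genotype or agent other than the dose of folic acid that separated the groups. High folic acid (pHF, 80 µM, 2 polysome libraries) entered the fit to help estimate the spread between replicates, and its values for a few genes are set beside the others at the end. The labels call the replicates biological but do not say whether they came from separate animals or cultures, so the p-values measure only the spread between these libraries.

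Polysomes are mRNAs that carry several ribosomes at once. In this assay ribosomes are held on their mRNA with cycloheximide, the lysate is spun through a sucrose gradient, and the heavy fractions are collected. Here every fraction heavier than 3 ribosomes per mRNA went into the pool, and polyadenylated RNA was sequenced from it. The abundance of an mRNA in such a library depends on how much of it the cell holds and on how much of it is in heavy polysomes, and the comparison of polysome libraries alone cannot tell these apart. Folate carries the single-carbon units used to make nucleotides, to convert serine and glycine, and to regenerate methionine, and dividing stem cells draw on all of these. The mRNAs of ribosomal proteins, which are short and start with a run of pyrimidines, are a classic group whose loading on polysomes follows growth signals. The comparison addresses which mRNAs were held in heavy polysomes at different levels when folic acid was low.

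The pLF libraries held 24821567 and 24193468 counts and the pMF libraries 25715180 and 28170296. Levels are given below as CPM, the counts of a gene per 1000000 counts of the library, after TMM scaling, which corrects each library's total for its composition. The pMF libraries were alike, with 2.86% of the tested genes differing more than 2-fold between them (Pearson r of log2(TPM + 1) across genes 0.992), but 20.0% differed that much between the pLF libraries (r = 0.964). A principal component analysis of the 6 polysome libraries put 53.4% of the variance on its first axis, where pLF replicate 2 was at 77.2 and the others between -32.8 and -3.28. On the second axis (20.4%), pLF replicate 1 lay at -40.8 and the others between -11.6 and 24.7. Transcripts made in the mitochondrion took 0.489% of the counts of pLF replicate 1 and 0.945% of pLF replicate 2, against 0.536% and 0.725% in pMF. The fitted fragment size, less 1 base, was 292.6 bases in pLF replicate 1 and between 273.8 and 280.7 bases in the other polysome libraries. Each pLF library therefore stood apart from pMF in its own way, and the 2 are given separately throughout.

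GC content separated the pLF libraries from each other. When the tested genes were ranked by the share of G and C in their mRNA and cut into 5 bins of equal size, pLF replicate 2 lay above the pMF mean by a median log2 of 0.69 in the bin of lowest GC content (28.1% to 45.2%) and at a median log2 of -1.23 in the bin of highest GC content (56.0% and above). The same medians in pLF replicate 1 were 0.01 and -0.18. The difference between the outer bins, highest minus lowest, was -1.93 in pLF replicate 2 and -0.19 in pLF replicate 1. It was -0.45 and -0.57 in the pHF libraries, and 0.08 and -0.08 in the pMF libraries, whose mean is the baseline. In the bin of highest GC content, 65.1% of the genes of pLF replicate 2 lay more than 2-fold from pMF, and 7.99% did so in pLF replicate 1. Across 5 bins of transcript length the medians of pLF replicate 2 ran between -0.14 and 0.18, a narrower range than along GC content, and those of pLF replicate 1 between -0.06 and 0.02. Along the length of the coding sequence they ran between 0.10 (shortest) and -0.13 (longest) in pLF replicate 1, a range about as wide as its range along GC content, and between 0.10 and -0.11 in pLF replicate 2.

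**Figure D1:**
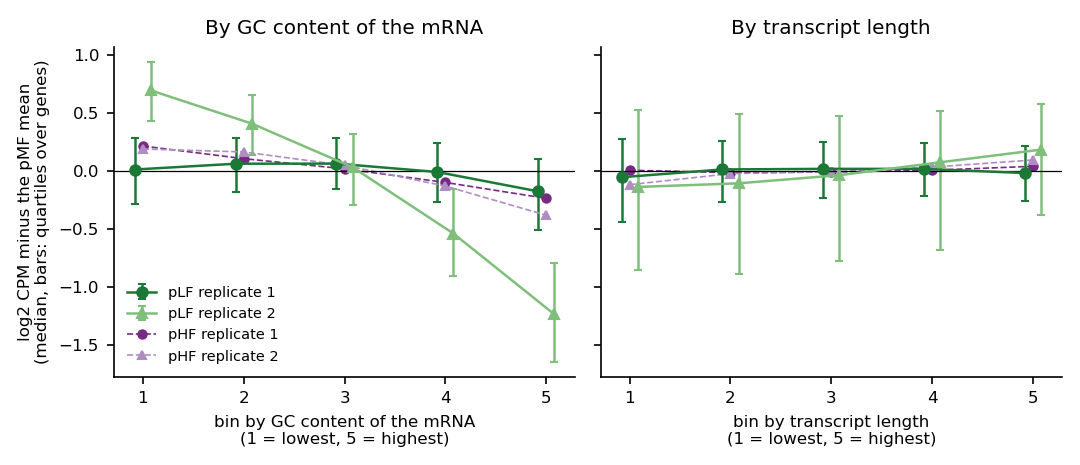
Median log2 CPM minus the pMF mean (vertical axis, bars give the quartiles over genes) in 5 equal bins of the tested genes by GC content of the mRNA (left) and by transcript length (right), for the pLF libraries (green, solid) and the pHF libraries (purple, dashed). The medians of pLF replicate 2 ran between 0.69 and -1.23 along GC content, and those of pLF replicate 1 stayed between 0.06 and -0.18.

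Scap and Eif3e show the pattern in single genes. They were chosen after their values were seen, as the abundant protein-coding genes of the outer GC bins in which pLF replicate 1 lay within 0.1 log2 of pMF and pLF replicate 2 lay farthest from it. Scap, which escorts the sterol-sensing transcription factors out of the endoplasmic reticulum and has an mRNA of 59.1% GC, had 169.6 CPM in pLF replicate 1 and 50.2 CPM in pLF replicate 2, against 163.9 and 167.8 CPM in pMF. Eif3e, a subunit of the initiation factor that brings mRNA to the small ribosomal subunit, has an mRNA of 40.3% GC and had 225.2 CPM in pLF replicate 1 and 442.1 CPM in pLF replicate 2, against 207.4 and 215.9 CPM in pMF. Scap was low and Eif3e high in replicate 2 only, and neither passed the test (log2 -0.59 ± 0.478 SE, adjusted p = 0.522, and log2 0.66 ± 0.299, adjusted p = 0.305).

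Other genes departed from pMF in both pLF libraries. The middle 90 bases of the coding sequence of 7 mRNAs are shown 5′ to 3′ to set the genes that were low in both libraries (Rplp1, Uqcr11, Rps26) and high in both (Paip1, Gng11) beside Scap and Eif3e. G and C are in capitals. The sequences are from GENCODE mouse release M21 (mm10).
Rplp1: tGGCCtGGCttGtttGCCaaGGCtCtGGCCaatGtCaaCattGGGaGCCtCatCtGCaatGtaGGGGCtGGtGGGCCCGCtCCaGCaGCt
Uqcr11: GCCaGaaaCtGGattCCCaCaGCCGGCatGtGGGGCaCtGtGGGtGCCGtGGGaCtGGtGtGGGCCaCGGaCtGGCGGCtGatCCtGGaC
Rps26: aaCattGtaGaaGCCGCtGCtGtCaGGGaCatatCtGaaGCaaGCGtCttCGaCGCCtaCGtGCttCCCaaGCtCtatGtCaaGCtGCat
Paip1: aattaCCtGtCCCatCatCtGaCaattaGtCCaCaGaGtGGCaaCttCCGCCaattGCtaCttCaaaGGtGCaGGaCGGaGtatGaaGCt
Gng11: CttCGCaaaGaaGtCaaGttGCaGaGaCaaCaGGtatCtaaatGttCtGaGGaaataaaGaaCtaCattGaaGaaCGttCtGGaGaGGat
Scap: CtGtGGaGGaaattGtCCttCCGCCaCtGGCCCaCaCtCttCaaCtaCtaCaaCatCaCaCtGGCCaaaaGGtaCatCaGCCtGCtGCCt
Eif3e: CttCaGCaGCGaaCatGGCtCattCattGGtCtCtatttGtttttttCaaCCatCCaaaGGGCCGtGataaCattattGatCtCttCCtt
G and C made up 54 of the 90 bases of Rplp1, 60 of Uqcr11, 46 of Rps26, 42 of Paip1, 35 of Gng11, 47 of Scap and 36 of Eif3e. Over the whole mRNA, GC content was 57.3% for Rplp1, 59.1% for Uqcr11, 48.6% for Rps26, 41.3% for Paip1 and 52.4% for Gng11. Rps26 and Gng11 thus departed from pMF in both libraries at whole-mRNA GC contents near the median of 50.6% over all tested genes. Over the coding sequence alone they lay farther apart, at 55.9% for Rps26, which was low, and 43.8% for Gng11, which was high.

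In polysome mRNA, 3 genes passed the test (edgeR, threshold 0.05 on the adjusted p and 1.2 on the fold change), all lower in pLF, which is 0.0223% of those tested. The only protein-coding one was Rplp1 (chr9:61913284-61914542, minus strand), which encodes an acidic protein of the ribosomal stalk, where elongation factors dock. Rplp1 had 85.5 and 72.3 CPM in pLF, against 319.6 and 348.3 CPM in pMF. Both pLF values lay far below both pMF values, and the 2 pLF libraries were close to each other. Rplp1 fell 4.23-fold (log2 -2.08 ± 0.197 SE, edgeR adjusted p = 0.0307). In total mRNA it was measured at 201.1 and 266.4 CPM for LF, against 251.1 and 241.6 CPM for MF, so its total level overlapped between the doses. Rplp1 kept its fold change but not its call when a library of another dose was left out, with an adjusted p of 0.173 without pMF replicate 1, 0.275 without pMF replicate 2, 0.0974 without pHF replicate 1 and 0.0853 without pHF replicate 2. The count of genes that passed was 942 without pLF replicate 2 and 6987 without pLF replicate 1, where pLF is a single library assumed to vary like the other groups.

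The other 2 genes that passed were not protein-coding and are uncertain, because read pairs that fit more than 1 gene were divided between them and the sources used here do not give the strand setting of the counting. Prss23os (chr7:89510007-89511873, plus strand), an antisense transcript that overlaps the serine protease gene Prss23, had 0 counts in both pLF libraries, against 830 and 944 in pMF (adjusted p = 0.00116). Gm8203 (chr6:116173737-116174123, plus strand), a processed pseudogene, had 0 counts in both pLF libraries, against 893 and 968 in pMF (adjusted p = 0.00276). With a count of 0 taken as at most 3 counts in each library, Prss23os would be at least 271-fold lower and Gm8203 at least 285-fold lower in pLF. The counts of both were not whole in 2 of the 4 libraries, and these limits do not cover how read pairs were divided between genes. Prss23, whose reads overlap those of Prss23os, had 9772 and 9358 counts in pLF and 7819 and 9342 in pMF. In total mRNA of LF, Prss23os had 527 and 780 counts and Gm8203 had 465 and 815, so the zeros were confined to pLF among the LF and MF libraries. Of the genes named here, Ccna2, Cox5a, Eid1, Id4, Mt2, Ndufa13, Nrarp, Slc2a1 and Srsf2 also lie antisense to another gene. Aars, Bax and Gng10 overlap another gene on the same strand. The values of all of these could include reads of a partner.

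A simple rule shows what both pLF libraries shared. In 621 genes (4.62%) both pLF libraries lay at least 1.5-fold below both pMF libraries, and in 253 genes (1.88%) at least 1.5-fold above. Without a limit on the fold, 3394 genes (25.3%) were below and 3340 (24.9%) above in both. The 621 genes had a median GC content of 57.8% and a median transcript length of 1474 bases, against 50.6% and 2606 bases over all tested genes. The 253 genes had a median GC content of 45.9% and a median length of 1773 bases. Short coding sequences were common on both sides: 17.3% of the protein-coding genes among the 621 and 23.0% among the 253 had a coding sequence under 500 bases, against 8.11% of all protein-coding genes tested.

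GC content and length were then crossed. Genes were cut into 3 equal bins of GC content and of length. Among those of the highest GC and lowest length bin, both pLF libraries were at least 1.5-fold below pMF in 350 of 1725 genes (20.3%), and the median log2 difference from pMF was -0.31 in pLF replicate 1 and -0.97 in pLF replicate 2. Among equally GC-rich genes of the longest bin, 43 of 1177 (3.65%) were that far below, with medians of 0.07 and -0.92. Short genes of the lowest GC bin had medians of 0.22 in pLF replicate 1 and 0.68 in pLF replicate 2, and 95 of 1228 (7.74%) were at least 1.5-fold above. These shares are a description of the same 4 libraries.

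**Figure D2:**
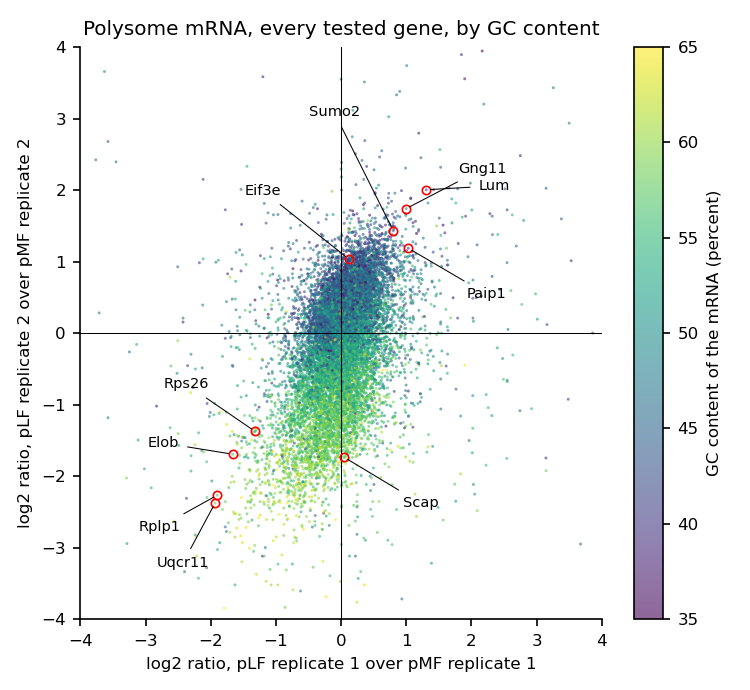
Log2 ratio of pLF replicate 2 over pMF replicate 2 (vertical) against pLF replicate 1 over pMF replicate 1 (horizontal), on CPM + 0.05, for every tested gene, coloured by GC content of the mRNA. Points run from GC-poor (dark) at the top to GC-rich (light) at the bottom, red circles mark named genes, and 50 genes lie beyond the axes.

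Ratios formed from pairs with no library in common agreed in sign for 64.05% of the genes (replicate 1 over replicate 1 and replicate 2 over replicate 2, Pearson r = 0.403 across genes) and, with the pMF libraries exchanged, for 58.1% (r = 0.275). These are descriptions across 13433 genes that share the base composition of their libraries. The spread between replicates, as the biological coefficient of variation, was 0.231 in the fit of all 6 polysome libraries. It was 0.145 when a smooth trend of the log ratios along GC content was first removed from each library. In that fit 249 genes (1.85%) were higher and 213 (1.59%) lower in pLF at the same thresholds. Of the 621 genes below, 171 passed there as lower, and of the 253 genes above, 90 passed there as higher. Below, the fit with the trend removed is named wherever its value is given. Counts of list members are to be read against the shares over all tested genes. At least 1.5-fold from pMF in both pLF libraries these were 4.62% below and 1.88% above, and at any fold 25.3% and 24.9%. Short mRNAs had higher shares, 11.5% below and 3.35% above in the shortest of the 5 length bins (under 1466 bases). The cytosolic ribosomal and nuclear respiratory lists had median lengths between 642 and 764 bases, and the mitochondrial ribosomal proteins 1039 bases. Removing the GC trend takes out no trend along length.

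Cytosolic ribosomal proteins, the protein parts of the ribosome, held the gene that passed and several others that were low in both libraries. Of 47 proteins of the large subunit, 11 were at least 1.5-fold below pMF in both pLF libraries and none above, and of 32 of the small subunit, 13 were below and 1 above. The median log2 fold change was -0.25 for the large and -0.23 for the small subunit, against 0.01 over all tested genes. Rps26, which sits at the exit channel for mRNA on the small subunit, had 113.4 and 116.3 CPM in pLF, against 283.7 and 301.7 CPM in pMF (log2 -1.35 ± 0.182, adjusted p = 0.0823). Rpl41, the smallest ribosomal protein, had 165.6 and 161.8 CPM in pLF, against 382.4 and 396.8 CPM in pMF (log2 -1.25 ± 0.179, adjusted p = 0.0823). For both, the pLF libraries nearly coincided and lay below the pMF libraries without overlap, but the adjusted p missed the threshold. Rpl36, of the large subunit, had 17.8 and 11.9 CPM in pLF, against 55.5 and 68.8 CPM in pMF, and Fau, whose product is a ubiquitin-like protein fused to a small subunit protein, had 20.9 and 10.9 CPM, against 61.6 and 63.9 CPM. Rps15 had 316.3 and 242.9 CPM in pLF, against 718.9 and 691.2 CPM in pMF.

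The ribosomal proteins differed among themselves. The 24 that were at least 1.5-fold below pMF had mRNAs of a median GC content of 55.4% (48.6% to 60.8%), and the other 55 had a median of 50.4% (44.2% to 58.4%). Their coding lengths were alike, with medians of 454.5 and 468 bases. In the fit with the GC trend removed, 13 of the 79 passed as lower and 1 as higher. Rplp1 (log2 -1.46 ± 0.194, adjusted p = 0.00548), Rps26 (log2 -1.49 ± 0.155, adjusted p = 0.00166), Rpl41, Rpl36 and Fau fell in that fit, and Rps15 did not pass (log2 -0.46 ± 0.204, adjusted p = 0.227). Rps24, of the small subunit, was the one at least 1.5-fold above pMF, at 744.8 and 1108 CPM in pLF, against 477.5 and 477.8 CPM in pMF. It was singled out after its values were seen. Of the 79 genes, 57 had counts that were not whole numbers in at least 1 library, as RSEM gives where read pairs fit more than 1 gene, and their values are uncertain. Rplp1 had whole counts in every library. Those of Rps26 and Rpl41 were not whole in 1 of the 4 libraries, and those of Rpl36 and Fau in all 4.

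**Figure D3:**
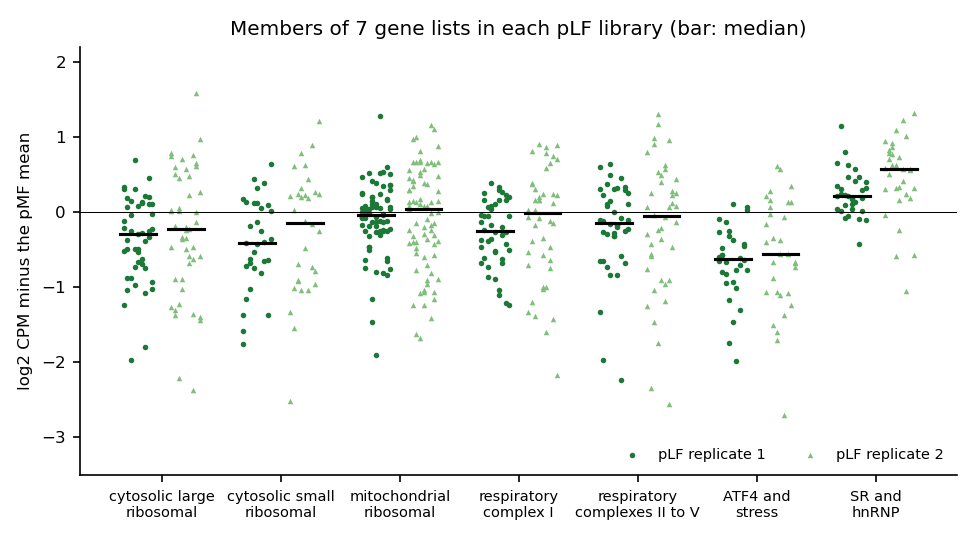
Log2 CPM minus the pMF mean of each member of 7 gene lists in pLF replicate 1 (dark circles) and pLF replicate 2 (light triangles), with a bar at the median. Members of the cytosolic ribosomal and respiratory lists spread from below -2 to above 0, the median of the ATF4 list is -0.63 in replicate 1 and -0.56 in replicate 2, and 1 small subunit gene (Rps12, listed at 0 in pLF replicate 2, with counts that were not whole) lies below the axis.

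Nuclear genes of the respiratory chain, which the cytosol translates before import into the mitochondrion, gave a similar picture. In complex I, 7 of 44 subunits were at least 1.5-fold below pMF in both pLF libraries and none above, and in complexes II to V, 6 of 42 were below and 1 above. The median log2 fold changes were -0.10 and -0.03. Uqcr11, a small subunit of complex III, which passes electrons to cytochrome c, had 19.0 and 14.6 CPM in pLF, against 72.6 and 76.0 CPM in pMF (log2 -2.15 ± 0.262, adjusted p = 0.0823). Uqcrq, which helps hold the ubiquinone site of the same complex, had 6.596 and 5.27 CPM in pLF, against 24.1 and 40.6 CPM in pMF, and Uqcr10 had 13.0 and 13.9 CPM, against 33.4 and 32.6 CPM. These 3 were named for their small p, and they fell in the fit with the GC trend removed (Uqcr11 log2 -1.38 ± 0.207, adjusted p = 0.0121, Uqcrq log2 -2.28 ± 0.275, adjusted p = 0.00424, Uqcr10 log2 -1.14 ± 0.199, adjusted p = 0.021). Of the 9 nuclear subunits of complex III tested, 5 lay below pMF in both pLF libraries, 2 above, and 2 overlapped, with log2 fold changes between -2.45 (Uqcrq) and 0.87 (Uqcrb), and 4 passed as lower in the fit with the GC trend removed. The 13 subunits that were at least 1.5-fold below had a median GC content of 56.7%, the other 73 a median of 49.4%.

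Ndufa13, a complex I subunit that the study followed by western blot, had 66.3 and 57.3 CPM in pLF, against 162.6 and 145.7 CPM in pMF (log2 -1.32 ± 0.207, adjusted p = 0.0862). Its difference with the GC trend removed was log2 -0.38 ± 0.244 (adjusted p = 0.397), and its mRNA is 60.4% GC. Ndufb7, of the same complex, had 35.9 and 25.6 CPM in pLF, against 80.8 and 74.1 CPM in pMF, and fell in that fit (log2 -0.81 ± 0.159, adjusted p = 0.0265). Ndufs8, an iron-sulfur subunit, had 64.0 and 59.2 CPM in pLF, against 124.5 and 112.7 CPM in pMF, and did not pass there (log2 -0.25 ± 0.219, adjusted p = 0.538). Members of complex I therefore differed in how much of their difference was left once GC content was taken out. Cox5a, of complex IV, was the one respiratory gene at least 1.5-fold above, at 170.4 and 196.5 CPM in pLF, against 113.1 and 112.1 CPM in pMF, and was singled out after its values were seen.

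The 13 transcripts of the mitochondrial genome are read by ribosomes inside the mitochondrion, not by those of cytosolic polysomes. Of the 12 tested, 8 overlapped between the doses, and their median difference from pMF was -0.40 in pLF replicate 1 and 0.98 in pLF replicate 2. One that lay above pMF in both pLF libraries was mt-Atp6, a subunit of ATP synthase, with 125.3 and 201.3 CPM in pLF, against 42.3 and 70.6 CPM in pMF (log2 1.53 ± 0.403, adjusted p = 0.175). Its counts were not whole in any of the 4 libraries. mt-Nd3 had 0 counts in both pLF libraries, against 39 and 19 in pMF, but also 0 in both pHF libraries. Mitochondrial ribosomal proteins, made in the cytosol, had a median log2 of -0.02 (0.05 with the GC trend removed), with 9 of 77 at least 1.5-fold below and none above.

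Small proteins of transcription and splicing complexes included some of the lowest values. Elob, an adaptor in elongin and in ubiquitin ligases, had 66.0 and 60.3 CPM in pLF, against 209.5 and 195.2 CPM in pMF (log2 -1.68 ± 0.186, adjusted p = 0.057). Sf3b5, a subunit of the splicing complex that recognises the branch point, had 8.25 and 5.77 CPM in pLF, against 28.4 and 38.04 CPM in pMF (log2 -2.24 ± 0.303, adjusted p = 0.0823). Sf3b5 has an annotated mRNA of 3841 bases and 45.5% GC, below the median, but its coding sequence of 258 bases is 61.6% GC. The trend was fitted on GC content of the whole mRNA. With the GC trend removed Sf3b5 fell by 2.45 on the log2 scale (SE 0.281, adjusted p = 0.00404) and Elob, with an mRNA of 57.4% GC, by 1.04 (SE 0.206, adjusted p = 0.027). In total mRNA Sf3b5 was at 12.6 and 15.0 CPM in LF and 15.6 and 15.7 CPM in MF. In the list of elongin, ubiquitin-like and small nuclear ribonucleoprotein genes, 5 of 25 were at least 1.5-fold below and 3 above, with a median of 0.11.

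Genes of the amino acid stress response, which the transcription factor ATF4 switches on when amino acids run short, had a median log2 of -0.46, and 6 of 32 were at least 1.5-fold below pMF in both pLF libraries and none above. The median was -0.63 in pLF replicate 1 and -0.56 in pLF replicate 2, so the 2 libraries were close in this list. Fgf21, a secreted hormone of fasting, had 8.64 and 8.94 CPM in pLF, against 25.7 and 33.2 CPM in pMF (log2 -1.74 ± 0.245, adjusted p = 0.0823). Gdf15, a secreted stress cytokine, had 2.16 and 1.28 CPM in pLF, against 6.29 and 12.1 CPM in pMF (log2 -2.42 ± 0.44, adjusted p = 0.121). With the GC trend removed, 5 of the 32 passed, all as lower, and the median was -0.26. Fgf21 (log2 -1.41 ± 0.218, adjusted p = 0.0136) and Gdf15 (log2 -1.50 ± 0.327, adjusted p = 0.033) were 2 of the 5.

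Shmt2, the mitochondrial enzyme that takes a single-carbon unit from serine onto folate, belongs to that list and to the folate enzymes. It had 268.7 and 198.6 CPM in pLF, against 572.1 and 634.9 CPM in pMF (log2 -1.37 ± 0.198, adjusted p = 0.0823). Shmt2 fell in the fit with the GC trend removed (log2 -0.77 ± 0.172, adjusted p = 0.0373). Its total mRNA was also lower in both LF libraries, with 50.3 and 55.9 CPM compared with 65.9 and 58.1 CPM for MF. The list of 33 folate and single-carbon enzymes had a median log2 of -0.12, with 2 at least 1.5-fold below (6.06%, near the 4.62% of all tested genes) and none above. Shmt2 was one and Slc19a1 the other. Slc19a1, the reduced folate carrier of the cell membrane, was at 16.4 and 10.3 CPM in pLF, against 27.4 and 30.7 CPM in pMF (log2 -1.12 ± 0.286, adjusted p = 0.171). Ggh, which trims the glutamate tail of folates in the lysosome, stood on the other side at 57.7 and 108.3 CPM in pLF, against 42.1 and 37.9 CPM in pMF (log2 1.05 ± 0.304, adjusted p = 0.185). None of the 15 writers, readers and erasers of 5-methylcytosine in RNA was at least 1.5-fold from pMF in both pLF libraries, and in a list of that size the shares over all tested genes (4.62% below, 1.88% above) would also give few.

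Cytosolic aminoacyl-tRNA synthetases, which charge tRNAs with amino acids, had a median log2 of -0.33 over 21 genes. At least 1.5-fold below pMF were 2 (9.52%, against 4.62% of all tested genes). Aars, for alanine, had 560.8 and 501.2 CPM in pLF, against 1007 and 908.8 CPM in pMF (log2 -0.85 ± 0.189, adjusted p = 0.14). Sars, for serine, had 518.6 and 564.1 CPM, against 912.2 and 860.4 CPM. Among 51 translation factors the median was -0.03, and 3 were at least 1.5-fold below (5.88%, near the 4.62% of all tested genes) and none above. Eif4ebp1, which holds back the cap-binding factor when mTOR is inactive, had 112.7 and 95.5 CPM in pLF, against 201.4 and 223.3 CPM in pMF (log2 -1.03 ± 0.199, adjusted p = 0.124), and Eef2, the elongation factor that moves the ribosome along, had 1766 and 833.1 CPM, against 3176 and 3106 CPM. Both fell in the fit with the GC trend removed (Eif4ebp1 adjusted p = 0.0136, Eef2 adjusted p = 0.0234).

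Glycolysis genes had a median fitted log2 fold change of -0.64 over 20 genes. Below pMF in both pLF libraries lay 17 of them (against 25.3% of all tested genes), and none lay above. The libraries differed in size, with a median of -0.37 in pLF replicate 1 and -0.89 in pLF replicate 2, and 3 genes were at least 1.5-fold below. Eno1, the glycolytic enolase, had 849.3 and 520.9 CPM in pLF, against 1478 and 1276 CPM in pMF (log2 -1.01 ± 0.252, adjusted p = 0.171). With the GC trend removed the median was -0.40, and 2 of the 20 passed as lower, Eno1 (adjusted p = 0.0414) and the glucose transporter Slc2a1 (adjusted p = 0.0487).

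Metallothioneins, small cysteine-rich proteins that bind zinc and copper, were low in both pLF libraries. Mt1 had 13.0 and 8.98 CPM in pLF, against 35.5 and 39.1 CPM in pMF (log2 -1.76 ± 0.276, adjusted p = 0.0862). Mt3, the form found in brain, had 81.8 and 54.8 CPM in pLF, against 218.1 and 205.7 CPM in pMF (log2 -1.63 ± 0.249, adjusted p = 0.0847). Mt2 had 41.4 and 31.5 CPM in pLF, against 74.6 and 81.85 CPM in pMF (log2 -1.10 ± 0.222, adjusted p = 0.128). Mt1 and Mt2 fell in the fit with the GC trend removed (adjusted p = 0.0158 and 0.0383), and Mt3, whose mRNA is 62.3% GC, did not pass there (log2 -0.60 ± 0.199, adjusted p = 0.115). In the metallothionein and zinc list 3 of 7 genes were at least 1.5-fold below and none above.

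**Figure D4:**
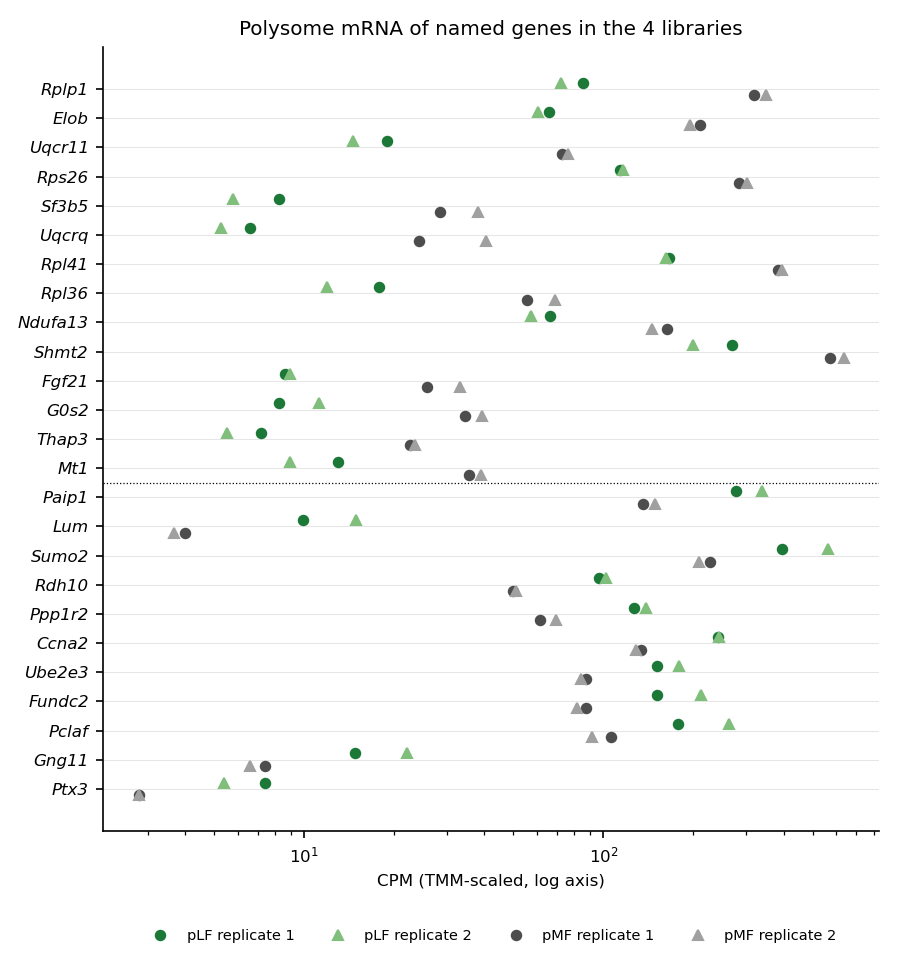
CPM on a log axis of 25 named genes in pLF replicate 1 and 2 (dark and light green) and pMF replicate 1 and 2 (dark and light grey), circles for replicate 1 and triangles for replicate 2. In the 14 genes above the dotted line both pLF values lie below both pMF values, and in the 11 genes under it both lie above.

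Selenoproteins, which carry the amino acid selenocysteine, had a median of -0.02 in pLF replicate 1 and -0.43 in pLF replicate 2, and 4 of 20 were at least 1.5-fold below. Selenow, a small selenoprotein with an mRNA of 57.2% GC, had 53.4 and 38.4 CPM in pLF, against 104.5 and 106.2 CPM in pMF (log2 -1.197 ± 0.22, adjusted p = 0.121). With the GC trend removed the list's median log2 fold change was 0.03, against -0.25 before, and 1 of the 20 passed, as higher. Of single genes outside the lists, G0s2, an inhibitor of lipolysis, had 8.21 and 11.2 CPM in pLF, against 34.4 and 39.2 CPM in pMF (log2 -1.92 ± 0.258, adjusted p = 0.0823). Thap3, a zinc finger protein, had 7.185 and 5.52 CPM, against 22.5 and 23.5 CPM (log2 -1.86 ± 0.266, adjusted p = 0.0823).

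No gene passed edgeR's test as higher in pLF, where 1038 genes were higher and 1286 lower at an unadjusted p under 0.05, DESeq2 called 219 higher and limma voom 4. The protein-coding genes of smallest p that were high in both pLF libraries had mRNAs of low to middling GC content. The first by p was Gm10273, a gene model at 42.8 and 72.2 CPM in pLF, against 1.57 and 1.41 CPM in pMF (log2 5.28 ± 0.56, adjusted p = 0.0521). Its counts were not whole in any of the 4 libraries, so its value is uncertain. Paip1, which joins the poly(A)-binding protein to initiation factors and promotes translation, had 277.6 and 338.2 CPM in pLF, against 135.8 and 148.6 CPM in pMF (log2 1.11 ± 0.188, adjusted p = 0.107). Paip1 rose with the GC trend removed (log2 0.77 ± 0.165, adjusted p = 0.0316). Lum, a collagen-binding proteoglycan of connective tissue, had 9.93 and 14.9 CPM in pLF, against 3.98 and 3.67 CPM in pMF (log2 1.69 ± 0.312, adjusted p = 0.121), and rose in that fit (log2 1.32 ± 0.227, adjusted p = 0.0199).

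Ccna2 and Pclaf, genes of dividing cells, were among them, and Mad2l1 was named for its small p within the mitosis list. Ccna2, the cyclin of S phase and mitotic entry, had 242.3 and 243.3 CPM in pLF, against 133.8 and 128.3 CPM in pMF (log2 0.89 ± 0.175, adjusted p = 0.127). Its counts were not whole in any of the 4 libraries, so its value is uncertain. Pclaf, a partner of the replication clamp, had 177.5 and 262.1 CPM, against 106.0 and 91.9 CPM, and Mad2l1, of the spindle checkpoint, had 134.5 and 174.4 CPM, against 84.5 and 74.1 CPM. All 3 lay above pMF in both pLF libraries and rose in the fit with the GC trend removed (adjusted p = 0.0368 for Ccna2, 0.033 for Pclaf and 0.0368 for Mad2l1). The mitosis list did not follow them: its median over 30 genes was 0.05. With the GC trend removed it was -0.05, and 3 passed as higher and 4 as lower, against 1.85% and 1.59% of all tested genes. DNA replication genes had a median of 0.10 over 38 genes (-0.04 with the GC trend removed), with 1 at least 1.5-fold below and none above.

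Other genes of that rank had varied roles. Sumo2, a ubiquitin-like modifier, had 396.8 and 561.6 CPM in pLF, against 227.6 and 208.3 CPM in pMF (log2 1.14 ± 0.218, adjusted p = 0.124). Its counts were not whole in 3 of the 4 libraries. Ube2e3, a ubiquitin-conjugating enzyme, had 151.3 and 179.2 CPM, against 87.3 and 84.4 CPM (log2 0.95 ± 0.187, adjusted p = 0.128), and Ppp1r2, an inhibitor of protein phosphatase 1, had 126.7 and 138.7 CPM, against 61.6 and 69.6 CPM (log2 1.02 ± 0.199, adjusted p = 0.124). Sumo2, Ube2e3 and Ppp1r2 rose in the fit with the GC trend removed (adjusted p = 0.0296, 0.027 and 0.0422). Rdh10, which makes retinaldehyde from vitamin A, had 96.7 and 102.3 CPM in pLF, against 49.7 and 51.2 CPM in pMF, and did not pass there (log2 0.69 ± 0.181, adjusted p = 0.059). Its total mRNA was also higher in LF, with 41.5 and 44.0 CPM compared with 34.6 and 36.2 CPM for MF. Fundc2, a protein of the outer mitochondrial membrane with an mRNA of 38.5% GC, had 150.9 and 212.2 CPM in pLF, against 87.55 and 81.85 CPM in pMF, and did not pass in that fit either (adjusted p = 0.0678). Id4, an inhibitor of basic helix-loop-helix factors in neural stem cells, had 19.1 and 16.8 CPM, against 7.15 and 7.62 CPM. Eid1, an inhibitor of histone acetylation, had 172.8 and 266.9 CPM, against 99.85 and 94.8 CPM, with counts that were not whole in 3 of the 4 libraries.

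Splicing factors of the SR and hnRNP families bind pre-mRNA and select splice sites. They lay above pMF in both pLF libraries in 22 of 32 genes and below in 2, against 24.9% and 25.3% of all tested genes. The median log2 fold change of these splicing factors was 0.44, with 0.21 in pLF replicate 1 and 0.58 in pLF replicate 2. Their median GC content was 45.1%. With the GC trend removed the median was 0.13, and 3 of the 32 passed as higher. Srsf2 had 234.6 and 182.4 CPM in pLF, against 104.8 and 106.4 CPM in pMF (log2 0.98 ± 0.201, adjusted p = 0.128). Hnrnpa0 had 190.6 and 188.6 CPM in pLF, against 111.2 and 108.3 CPM in pMF (log2 0.79 ± 0.173, adjusted p = 0.137). Hnrnpa0 has an mRNA of 55.4% GC, against the direction of the trend, and its difference was larger once the trend was removed (log2 1.23 ± 0.195, adjusted p = 0.0136). Srsf2 lies antisense to another gene and its counts were not whole, so its value is uncertain.

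**Figure D5:**
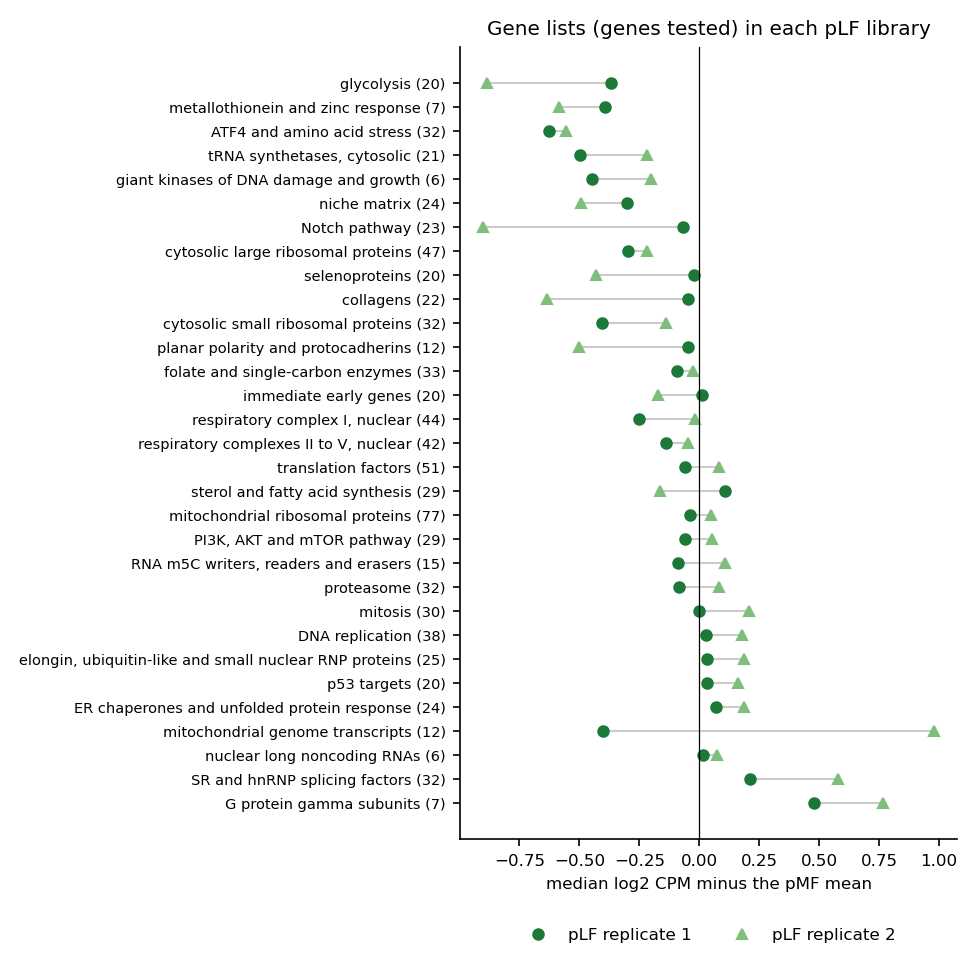
Median log2 CPM minus the pMF mean of each gene list with at least 6 tested genes, in pLF replicate 1 (dark circles) and pLF replicate 2 (light triangles), lists ordered by their median log2 fold change and the number of tested genes in brackets. Glycolysis (-0.37 and -0.89) and the ATF4 list (-0.63 and -0.56) lie on the left, the SR and hnRNP factors (0.21 and 0.58) on the right, and the mitochondrial genome transcripts (-0.40 and 0.98) lie on both sides of 0.

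Gng11 and Ptx3 were followed by western blot in the study, Gng11 for LF and Ptx3 for HF. Both were higher in both pLF libraries at low levels. Gng11, the gamma subunit of a G protein that signals from membrane receptors, had 14.8 and 22.1 CPM in pLF, against 7.38 and 6.57 CPM in pMF (log2 1.40 ± 0.299, adjusted p = 0.136). Ptx3, a secreted pentraxin of innate immunity and matrix, had 7.42 and 5.40 CPM in pLF, against 2.81 and 2.80 CPM in pMF (log2 1.19 ± 0.3, adjusted p = 0.171). Neither overlapped with pMF, and both rose in the fit with the GC trend removed (Gng11 log2 1.56 ± 0.265, adjusted p = 0.0191, Ptx3 log2 1.32 ± 0.227, adjusted p = 0.0206). In total mRNA Gng11 had 5.70 and 6.15 CPM in LF and 6.01 and 6.38 CPM in MF. Of 7 gamma subunits tested, 6 lay above pMF in both pLF libraries (against 24.9% of all tested genes) and none below. The median log2 of these subunits was 0.55. Gng10, the next by p, had 51.2 and 87.4 CPM in pLF, against 32.3 and 35.2 CPM in pMF (log2 1.04 ± 0.291, adjusted p = 0.178), and overlaps another gene on the same strand. Ptx3 was not joined by the other pentraxins, of which 4 were tested, with 1 above and 1 below pMF in both pLF libraries and a median of -0.04 (0.41 with the GC trend removed).

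Genes of the stem cell state gave values on both sides. Nes, the intermediate filament nestin that marks NSCs, had 397.5 and 240.0 CPM in pLF, against 547.0 and 632.2 CPM in pMF (log2 -0.89 ± 0.265, adjusted p = 0.193), and Sox2, a transcription factor of neural stem cells, had 155.1 and 215.8 CPM, against 107.3 and 120.7 CPM (log2 0.70 ± 0.216, adjusted p = 0.199). The Nes mRNA is 58.4% GC, and with the trend removed its difference was log2 -0.23 ± 0.156 (adjusted p = 0.424), while that of Sox2, at 50.5% GC, was log2 0.67 ± 0.178 (adjusted p = 0.059). All 16 NSC markers were tested, with a median of 0.05 and none at least 1.5-fold from pMF in both pLF libraries. Their summed level was 6403 and 6986 CPM in pLF, against 6254 and 6404 CPM in pMF. The labelled cell type was therefore present in its markers at both doses.

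Of the marker lists of other cell types, those of microglia, endothelium and ependyma were sparse in their summed level, and the others were not. The astrocyte list summed to 694.8 and 668.9 CPM in pLF, against 829 and 739.3 CPM in pMF. Most of it came from Aldoc (360.0 and 235.4 CPM in pLF) and Gja1 (295.2 and 404.0 CPM). Gfap had 41 and 26 counts in pLF, against 42 and 24 in pMF. Aqp4 had 11 and 3, against 19 and 13, and S100b had 8 and 2, against 3 and 5. The oligodendrocyte lineage list summed to 363.1 and 194.6 CPM in pLF, against 401.1 and 409.5 CPM in pMF. Its largest member was Olig1 (264.2 and 116.9 CPM in pLF). Pdgfra had 338 and 528 counts in pLF, against 621 and 596 in pMF. Mbp had 44 and 41, against 58 and 44, and Mog had at most 1 count in each library. Of 8 microglia markers 2 were tested, summed over the list to 16.0 and 9.57 CPM in pLF and 19.4 and 15.5 CPM in pMF, and the defining markers Aif1 and Cx3cr1 had 0 counts in all 4 libraries. The endothelium list summed to 6.75 CPM in each pLF library and 6.99 and 7.55 CPM in pMF, with Cldn5 at 0 in all 4, and the ependyma list to 9.19 and 8.48 CPM in pLF and 8.67 and 8.71 CPM in pMF. The mesenchymal and mural list, to which Lum and Dcn belong, summed to 1597 and 1107 CPM in pLF, against 1485 and 1405 CPM in pMF, with a median log2 of -0.04 over 11 genes, 2 of them at least 1.5-fold above. Dcn, a connective tissue proteoglycan like Lum, had 4.71 and 10.5 CPM in pLF, against 2.73 and 2.90 CPM in pMF (log2 1.43 ± 0.421, adjusted p = 0.191), whereas Col1a1, the main fibrillar collagen, had 1.37 and 0.824 CPM, against 1.99 and 2.45 CPM. In the neuroblast and neuron list, which summed to 158.4 and 193.9 CPM in pLF and 223.1 and 197.8 CPM in pMF, 1 of 12 genes was at least 1.5-fold below and 1 above. Tubb3, a neuronal tubulin, had 30.5 and 20.0 CPM in pLF, against 90.01 and 65.6 CPM in pMF, and Stmn2, a neuronal regulator of microtubules, had 4.99 and 4.12 CPM, against 2.30 and 2.24 CPM. The part of other cell types in the differences was not tested. In bulk libraries fewer cells of a type and less RNA per cell cannot be told apart.

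A group of genes split the pLF libraries. In 1697 genes (12.6%) pLF replicate 1 lay above and replicate 2 below both pMF libraries, and in 1587 genes (11.8%) the reverse held. Cdsn, an adhesive protein of cornified skin, had 4.44 CPM in pLF replicate 1 and 0.535 CPM in pLF replicate 2, against 1.29 and 2.48 CPM in pMF. Zfp948, a zinc finger protein, had 0.864 CPM in pLF replicate 1 and 4.70 CPM in pLF replicate 2, against 1.45 and 2.31 CPM in pMF. Nox4, an oxidase that makes hydrogen peroxide, had 0.471 and 2.80 CPM, against 1.48 and 1.22 CPM. In these genes the mean over the pLF libraries describes neither library. The Notch list, whose genes pass signals between neighbouring cells, was split in size: its median was -0.07 in pLF replicate 1 and -0.90 in pLF replicate 2, with a median GC content of 56.2%, and with the GC trend removed its median was 0.07.

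The levels of the 621 and 253 genes were set beside total mRNA from the same doses. Both LF libraries lay below both MF libraries in total mRNA for 162 of the 621 genes (26.1%), above for 51 (8.21%), and overlapped for 408 (65.7%). Of the 253 genes, 74 were above in total mRNA (29.2%), 19 below (7.51%), and 160 overlapped (63.2%). Over all tested genes, total mRNA lay on the side of the polysome fold change in 23.3%, on the opposite side in 11.8%, and overlapped in 64.8%. Both sets thus had a somewhat higher share on the same side and a lower share on the opposite side. The shares over all genes include genes whose polysome libraries overlapped, and the difference in shares was not tested. Elob had 67.3 and 80.5 CPM in total mRNA of LF, against 78.0 and 74.0 CPM in MF, and Paip1 had 155.3 and 161.2 CPM, against 150.4 and 155.3 CPM. For both genes the difference in polysome mRNA, more than 2-fold, was larger than the difference in total mRNA, but the difference between the 2 was not tested.

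The high dose gives a second view of the same pMF baseline, with which it shares its control libraries. Rplp1 had 259.2 and 215.3 CPM in pHF, Elob 171.1 and 150.7 CPM, Rps26 265.2 and 220.2 CPM, and Sf3b5 20.6 and 16.9 CPM, all between the pLF and pMF values. Fgf21 had 35.8 and 36.1 CPM in pHF, above pMF, where pLF was below. Gng11 had 9.96 and 8.46 CPM and Ptx3 6.598 and 7.47 CPM in pHF, both above both pMF values. Paip1 had 162.3 and 147.0 CPM in pHF, and one of its values overlapped with pMF. None of the genes in this paragraph passed the test of pHF against pMF (edgeR, adjusted p = 0.948 for each).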

How the data were processed

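Polysome mRNA of adult mouse NSCs was sequenced in 2 libraries each for LF, MF and HF. According to the submitters' processing notes, Bowtie2 2.2.9 placed the reads on mm10 and RSEM 1.3.0 estimated the level of each gene. RSEM shares out read pairs that match more than 1 gene. The deposited tables gave an expected count per gene, an estimate by the authors' RSEM run that need not be whole, and TPM made by the authors from the same counts. An other measurement, the deposited length and effective length of each gene, gave the transcript length and fragment size.

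Expected counts were rounded to whole numbers. Of the 43432 identifiers, 42548 (97.96%) matched GENCODE release M21, which gave symbols, biotypes and positions, and 42721 had a GC content. The main test used edgeR 4.0.16 (R 4.3.3) on all 6 polysome libraries (TMM, filterByExpr, robust quasi-likelihood F test, 3 residual degrees of freedom), with Benjamini-Hochberg adjustment over the 13433 genes. Unless another tool is named, every adjusted p comes from this test. The thresholds, 0.05 for the adjusted p and 1.2 for the fold change, were those of the study. Alternatives used DESeq2 1.42.0, limma 3.58.1, other scaling, filters and sets of libraries, and offsets from a loess curve (span 0.5) of each library along GC content or length. The scripts were tested on simulated data.

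The study used Xtail for translation efficiency, which was not used here. The members and gene lists were chosen with earlier results of these data known, so no list is independent evidence. Named genes were those that passed, the 12 protein-coding genes of smallest p in each direction whose groups did not overlap, 5 genes of interest to the study or the cell type, up to 3 of smallest p per list, and 6 in each direction that split the pLF libraries. Lists are described by counts and medians. Read pairs carried no molecular identifiers, so limits set for a count of 0 cover counting error only. Replicates differed by more than sampling noise (chi-square over degrees of freedom 140.0 for pLF, 15.3 for pMF and 23.2 for pHF), so each library counted as 1 replicate.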

Additional observations from a re-analysis of the deposited data

Results flagged for a closer look

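Of the 143 genes of the naming rule, 7 had polysome and total mRNA on opposite sides. In these, both polysome libraries of LF lay on one side of both MF libraries and both total mRNA libraries of LF on the other. Over all tested genes, total mRNA lay opposite to the sign of the polysome fold change in 11.8%. None of the 7 passed the test in polysome mRNA. With the GC trend removed, Mt2 and Nrarp passed as lower. Bax (log2 -0.19), Plk3 (-0.46), Fabp7 (0.33), Mt3 (-0.60) and Ndufs8 (-0.25) did not pass there. The difference between polysome and total mRNA was not tested. Mt2 was higher in total mRNA of LF by 0.20 on the log2 scale (141.6 and 156.2 CPM in LF, 125.7 and 134.1 CPM in MF), where its polysome value was -1.10. Mt3 was higher by 0.053 (236.7 and 231.9 CPM in LF, 224.3 and 227.5 CPM in MF), where its polysome value was -1.63. Ndufs8 was higher by 0.089 (35.2 and 37.97 CPM in LF, 34.5 and 34.2 CPM in MF), where its polysome value was -0.95. Nrarp, a feedback inhibitor of Notch, was higher by 0.94 (2.79 and 4.24 CPM in LF, 1.26 and 2.45 CPM in MF), where its polysome value was -2.48, and its counts were low and not whole. Fabp7, a fatty acid binding protein of neural stem cells, had a total mRNA value of -0.14 (662.2 and 694.8 CPM in LF, 759.9 and 738.0 CPM in MF), where its polysome value was 0.68. Bax, a promoter of apoptosis that p53 induces, was higher in total mRNA of LF by 0.027 (148.3 and 150.4 CPM in LF, 148.0 and 145.1 CPM in MF), where its polysome value was -0.96 (136.8 and 100.5 CPM in pLF, 233.9 and 227.8 CPM in pMF). Plk3, a polo-like kinase, was higher by 0.14 (16.284 and 19.4 CPM in LF, 16.281 and 16.0 CPM in MF), where its polysome value was -1.07. In both, 1 LF library and 1 MF library of total mRNA were nearly equal.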

How the results depend on the processing

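The count of 3 genes called was 231 with a replicate block, 462 with the GC trend removed, 711 with both, 6 with the length trend removed, 522 with no filter on low counts, 668 with DESeq2 and 8 with limma voom, and ran between 2 and 6987 when a polysome library was left out. The 874 genes in which both pLF libraries were at least 1.5-fold from pMF (621 below, 253 above) became 2934 at 1.2-fold, 238 at 2-fold, 1353 with no filter and 565 with the GC trend removed (298 below, 267 above), and between 1353 and 5646 without a library. The GC contrast of -0.19 in pLF replicate 1 was -0.079 when GC content was taken from the coding sequence, and that of -1.93 in pLF replicate 2 was -1.62 with no filter and -1.69 from the coding sequence. Without a pMF library they ran between -0.28 and -0.12, and between -2.02 and -1.83. The cause of these moves was not tested. Of 1999 values of the 143 genes that the naming rule gave, 1934 kept their direction and 65, in 23 genes, reversed: 25 with the GC trend removed, with or without the block, 17 without a pLF library and 23 under the other alternatives. Among genes with values in the text, Nox4 reversed with the GC trend removed (-0.19), with the block added (-0.24) and with limma voom (-0.23), Cdsn with limma voom (-0.20), and Zfp948 with the GC trend removed and the block (-0.032). With one library left out, Nox4 ran between -1.51 and 1.08, Zfp948 between -1.12 and 1.34, Scap between -1.70 and 0.032, and Cdsn between -1.79 and 1.22. Rplp1 missed the threshold with only the 4 pLF and pMF libraries (log2 -2.07, adjusted p = 0.102) and without any single pMF or pHF library. The labels do not say whether the replicate numbers pair the samples. Deviations of replicate 1 from the group means correlated at 0.16 between pLF and pMF, 0.03 between pHF and pLF and -0.15 between pHF and pMF. These values cannot show a pairing or its absence, since the GC shift of pLF replicate 2 enters the pLF deviations. The count of 231 with the block assumes a pairing that the labels do not state. Of the medians of 40 gene lists, 18 changed sign with the GC trend removed, 17 with the block added, 8 with the length trend removed, 2 with DESeq2 size factors, 2 with only the 4 pLF and pMF libraries and 1 with the block alone. At this spread, with 2 libraries a group, the only protein-coding gene that passed had a 4.23-fold difference.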
